A study of Mus musculus with 49 samples.

Results

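The genes described here encode the tubulins that build neuronal microtubules and the proteins that bind them during growth. They were taken as those of 10 named genes (Tuba1a, Tubb3, Tubb2a, Tubb2b, Stmn1, Stmn2, Dcx, Map1b, Map2 and Mapt) that are rows of the expression table. The table lists 9 of the 10, among 9020 genes in all, and Stmn1 was not analysed here. They were measured in 49 single neurons of wild-type (WT) CD1 mice by Patch-seq, in which the contents of a recorded cell are drawn into the patch pipette and sequenced. FlashTag, a dye put into the ventricle that marks cells dividing at its surface, was given on embryonic day E13.5, and cells were collected from the primary somatosensory cortex at postnatal day P7. All cells are 1 condition. The paper reports several independent experiments, with cells of different days and laminar positions put in the same library to limit batch effects. No animal or collection day is named for the cells in the labels, so they were treated as 1 sample. No test was made, and spreads and correlations between cells are descriptions.

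Microtubules are polymers of alpha- and beta-tubulin dimers, each of which is encoded by several genes called isotypes. A growing neuron assembles them in its axon, dendrites and growth cone, where associated proteins such as MAP1B, MAP2 and tau bind and steady the polymer, and stathmins bind free tubulin dimers. Tuba1a, Tubb3 and Dcx are widely used to mark young neurons, and MAP2 is a marker of the cell body and dendrites.

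The cells came in 5 library pools, as the labels name them, of 12, 9, 9, 9 and 10 cells, and a cell is named here by its number and pool in the labels (IL01 of pool 3). Values are RPM, the reads of a gene scaled to a common total in every cell, and the reads behind them were recovered, with totals of 209850 to 35342325 per cell and a median of 1240101. All 49 cells had at least 2 of 7 pan-neuronal markers at 10 RPM or more, and the summed level of those markers ranged from 565 to 6938 RPM. At the same limit, 37 cells had at least 2 excitatory markers, 17 inhibitory, 12 astrocyte, 17 oligodendrocyte lineage and 9 microglia markers. Hemoglobin genes held 1% or more of the reads in 8 cells and 68.8% in IL01 of pool 3.

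Every one of the 9 genes had at least 1 read in all 49 cells (100%, exact Clopper-Pearson 95% interval 92.7% to 100%, for counting error only). Of all 9020 genes, 731 did, or 8.1%. A read is not proof of expression in its cell, since reads can pass between the cells of a pool. Such exchange was estimated from 84 genes with 100 RPM or more in 2 cells and under 10 RPM in all others. It had a mean of 0.177% of the source reads and a 99th percentile of 3.73%. Genes whose reads reached 10 RPM in further cells were left out by that choice, so larger exchange could be missed. For Map1b no cell was at or under the mean, and for the other 8 genes 1 (Tubb2a, Stmn2) to 5 (Dcx, Map2) cells were. At or under the 99th percentile were 16 to 21 cells for each gene, shallow cells of a deep pool included. A limit of 100 RPM in every cell was reached by Tuba1a, Tubb3, Tubb2a, Stmn2, Map1b and Mapt, 6 of the 9, and by 30 genes or 0.333% of the whole table. Tubb2b, Dcx and Map2 reached it in 36, 40 and 37 cells. Together the 9 genes took between 0.667% of the reads, in IL05 of pool 5, and 4.29%, in IL08 of pool 2, with a median of 2.46%.

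**Figure D1:**
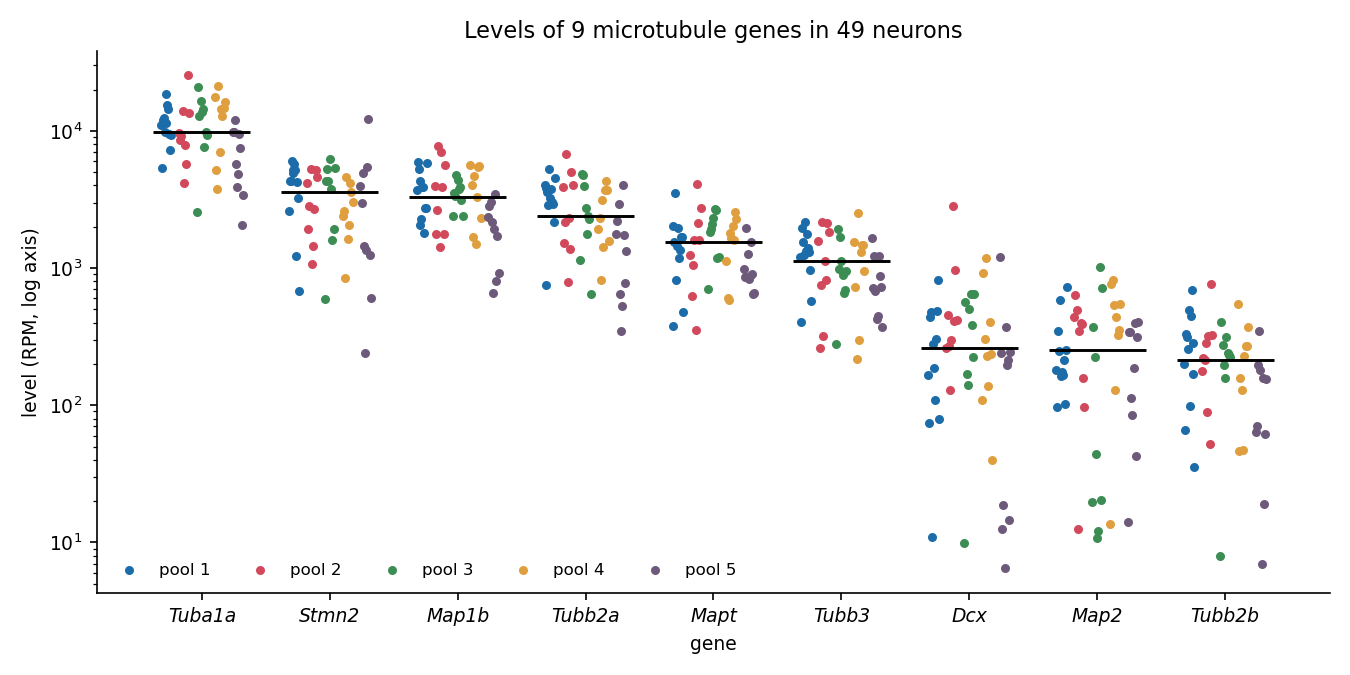
Level of each of the 9 genes (RPM, log axis) in each of 49 neurons. A point is a cell, coloured by library pool, and a black line is the median over all cells. Tuba1a lies highest, between 2075 and 25361 RPM, while Dcx, Map2 and Tubb2b reach down to 6.49, 10.7 and 6.99 RPM.

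Tuba1a, the main alpha-tubulin gene of developing neurons (ENSMUSG00000072235.6, GRCm38 chr15:98949837-98953703, minus strand, overlapping the predicted gene Gm49450), ranged from 2075 RPM in IL09 of pool 5 to 25361 RPM in IL08 of pool 2, with a median of 9733 RPM. Its middle cells, from the lower to the upper quartile, lay between 7200 and 13982 RPM. This median was rank 2 of the 9020 genes, and no cell had fewer than 1283 Tuba1a reads. The standard deviation (SD) of log2(RPM + 1) over cells was 0.80. This was rank 4 from the lowest among the 731 genes with a read in every cell, whose median SD was 1.87. The median level of those genes was 278 RPM, far under that of Tuba1a, and the SD ranks given here were not matched for level. Of the 100-base windows in the last 500 bases of its transcript, 50.9% also occur in Tuba1b, Tuba1c or predicted genes, so part of its reads could not be placed with certainty.

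The beta-tubulins spanned a wide range. Tubb3, the neuron-enriched isotype (chr8:123411424-123422015, plus strand, overlapping the predicted gene Gm20388), went from 217 to 2510 RPM with a median of 1122, and both of those extreme cells were in pool 4. Tubb2a (chr13:34074274-34078007, minus strand) went from 349 to 6775 RPM with a median of 2398, a 19.4-fold range that was 10.5-fold without pool 5. Tubb2b, its neighbour on the same strand (chr13:34126748-34130466), went from 6.99 to 769 RPM with a median of 212. Tubb2b was thus the scarcest and the most variable of the 4 tubulins: its SD on the log2 scale was 1.43, against 0.91 for Tubb3 and 0.997 for Tubb2a. It fell under 10 RPM in 2 cells, where as few as 4 reads stood behind it. These were IL06 of pool 5, with 8.97% hemoglobin reads, and IL01 of pool 3, with 68.8%. Without the 8 cells of at least 1% hemoglobin reads the SD of Tubb2b was 1.14. Tubb2a shared 21.2% of its terminal windows with Tubb2b, and Tubb2b shared 0.956% of its own with a Tubb2a pseudogene.

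Shares among isotypes were compared per kilobase of exon (RPM per kb). Tuba1a held between 80.0% and 99.3% of the summed alpha-tubulin level per kb, with a median of 95.8%, and was the highest alpha isotype in all 49 cells. Tuba1b followed with a median of 3.29%. Among the beta isotypes Tubb2a had the largest share per kb in 46 cells, between 14.8% and 84.6% with a median of 54.0%, and Tubb5, a broadly expressed isotype outside the 9 genes, in the other 3. Per kb, Tubb3 had a median share of 19.1% and Tubb2b of 3.02%. The shares depended on the length: without division by it, Tubb2a had a median of 42.5% of the beta-tubulin RPM, Tubb5 of 33.5% and Tubb3 of 17.3%, and Tubb2a was highest in 36 cells and Tubb5 in 13. Within single cells the ratio of Tubb2a to Tubb2b went from 2.64 to 205 per kb and from 1.85 to 144 in RPM.

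**Figure D2:**
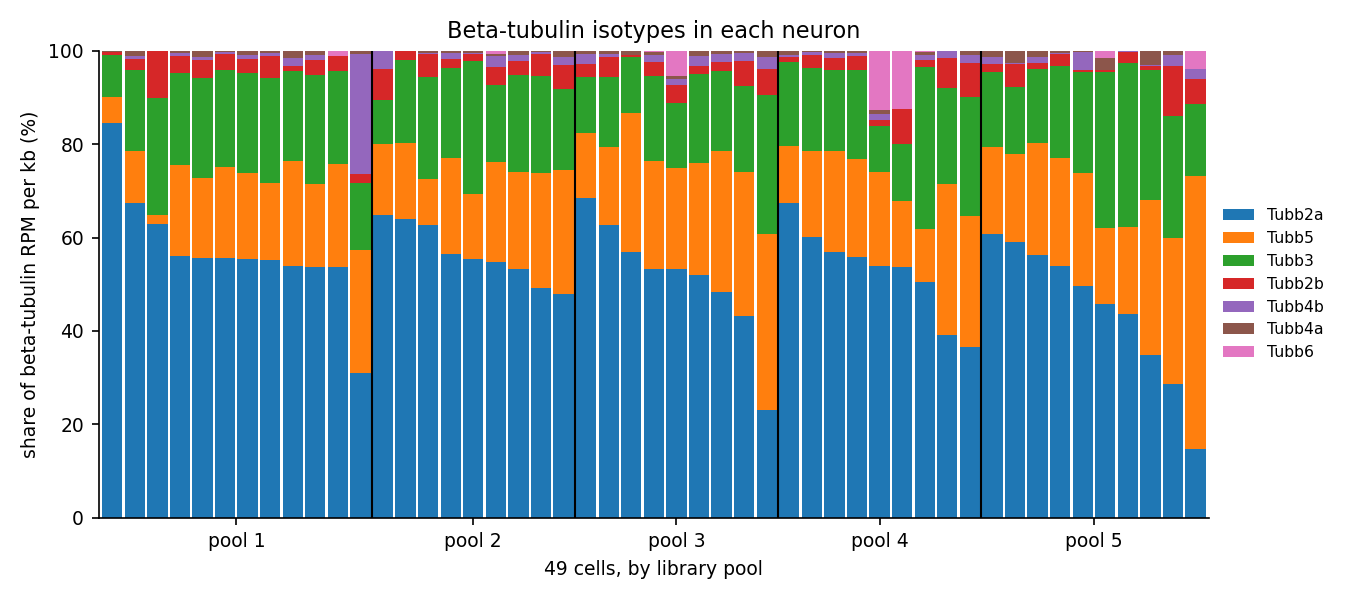
Share of each beta-tubulin isotype in the summed beta-tubulin level (% of RPM per kb) in each of 49 neurons, 1 bar per cell, grouped by library pool and ordered by the Tubb2a share within a pool. Tubb2a is the largest segment in 46 bars, with a median of 54.0%, and Tubb5 in 3.

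Stmn2 encodes a stathmin of growth cones that binds tubulin dimers (ENSMUSG00000027500.10, chr3:8509360-8561606, plus strand). Its level ranged from 241 RPM in IL05 of pool 5 to 12133 RPM in IL08 of pool 5, with a median of 3587 and quartiles of 1626 and 4912 RPM. IL05 of pool 5 had the highest summed microglia markers of all cells (3210 RPM) and 24.7 RPM of excitatory markers. The lowest Tubb2a, Map1b and Dcx values were also in it. IL08 of pool 5 had the fewest reads of all cells (209850). The range of Stmn2 was 50.3-fold, and its lowest and highest cells were in the same pool. Without pool 5 it was 10.5-fold, beside 9.97-fold for Tuba1a, so the wide range rested on that pool. Its median was rank 8 of the 9020 genes, and its SD on the log2 scale was 1.11. The median in the 10 cells of pool 5 was 2198 RPM and in the 12 cells of pool 1 it was 4307, while the pool accounted for 5.72% of the variance between cells, the lowest share of the 9 genes.

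Map1b and Mapt, which encode axonal microtubule-associated proteins, varied as little as Tuba1a. Map1b (chr13:99421446-99516540, minus strand) ranged from 654 to 7765 RPM with a median of 3293 and an SD of 0.79 on the log2 scale, rank 2 from the lowest of the 731 genes. Mapt, the gene of tau (chr11:104231390-104332090, plus strand), ranged from 351 to 4069 RPM with a median of 1543 and an SD of 0.81, rank 5. The highest cell had 11.9 times the Map1b and 11.6 times the Mapt RPM of the lowest, and without pool 5 the Map1b range was 5.43-fold.

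Map2, the gene of the dendritic microtubule-associated protein (ENSMUSG00000015222.17, chr1:66175273-66442583, plus strand, with 3 predicted genes inside or across it), behaved otherwise. Its level ranged from 10.7 RPM in IL05 of pool 3 to 1024 RPM in IL07 of the same pool, a 95.6-fold range, with a median of 255 and quartiles of 102 and 401 RPM. The SD of 1.79 on the log2 scale was rank 316 of 731, near the median gene. Its median level was also near that of the 731 genes (278 RPM), while the medians of Tuba1a, Map1b and Mapt were higher. How far the SDs follow the level was not tested. Under 50 RPM lay 9 cells, a limit set after the values were seen: 7 of them had 10.7 to 20.2 RPM and the other two 42.9 and 43.9 RPM, and the next cell had 84.3 RPM. The step from 20.2 to 42.9 RPM (2.12-fold) was wider than that from 43.9 to 84.3 RPM (1.92-fold), so the values do not fix where the low cells end. Of the 9 cells, 5 were in pool 3, whose median was 43.9 RPM against 197 to 440 RPM in the other pools.

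In the 9 cells low in Map2, Tuba1a ranged from 2544 to 17587 RPM, Stmn2 from 593 to 12133 RPM and Map1b from 801 to 7765 RPM. Tubb2a ranged in them from 1142 to 6775 RPM and Mapt from 708 to 2715 RPM. The lowest Tuba1a, Stmn2, Tubb2a and Mapt values among them were all in IL01 of pool 3, the cell with 68.8% hemoglobin reads. The next lowest Tuba1a value was 7553 RPM, in IL08 of pool 5. Their medians were under those of the other 40 cells for Tubb2a (1927 against 2906 RPM) and Mapt (1178 against 1544). For Tuba1a (13716 against 9573 RPM), Stmn2 (3979 against 3139) and Map1b (3764 against 3154) they were higher. The 9 cells included the highest Stmn2, Tubb2a and Map1b values of all 49 cells. In IL04 of pool 2, for example, Map2 was at 12.5 RPM from 8 reads, while Tubb2a was at 6775, Map1b at 7765 and Tuba1a at 13982 RPM. The totals of the 9 cells were 209850 to 2076810 reads with a median of 504302, under the median of 1240101 over all cells, and Map2 rested on 5 to 70 reads in each. Against the mean exchange of 0.177%, 4 of these 9 cells held no more Map2 than that share of the Map2 reads elsewhere in their pool, as did 1 cell outside the 9, at 96.9 RPM. All 9 held 0.0813% to 1.48% of those reads, under the 99th percentile of exchange of 3.73%. In all, 20 of the 49 cells were at or under that percentile for Map2. How much of the lowest Map2 values such exchange makes up was not tested.

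Dcx, whose product doublecortin binds microtubules in migrating neurons (chrX:143855842-143933311, minus strand), had the widest range of the 9, from 6.49 RPM in IL05 of pool 5 to 2853 RPM in IL06 of pool 2, or 440-fold, with a median of 261 RPM. Its SD was 1.90 on the log2 scale, rank 386 of 731. Without pool 2 the range was 186-fold and without pool 5 it was 288-fold. Under 50 RPM, 6 cells lay between 6.49 and 18.6 RPM and 1 at 40.1 RPM, and the next had 73.6 RPM. Of these, 4 were in pool 5. Only IL01 of pool 3, the cell with 68.8% hemoglobin reads, was among the lowest cells for both Dcx and Map2. With its RPM rescaled to the reads outside hemoglobin and mitochondrial genes, Tuba1a in that cell was at 9117, against a median of 10397 over cells. Rescaled in the same way Dcx was at 35.5 (median 283) and Map2 at 71.1 (median 269). Both stayed under their medians there, on 5 Dcx and 10 Map2 reads, and Map2 was then over the limit of 50. Of the 7 cells, 3 were at or under the mean exchange of reads, with 5 reads in the lowest, as were 2 further cells at 73.6 and 79.9 RPM. All 7 held 0.0842% to 0.630% of the other Dcx reads in their pool, under the 99th percentile of exchange of 3.73%. In all, 16 cells were at or under that percentile for Dcx.

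Per kb, the median levels ran from Tuba1a (5398 RPM per kb) over Tubb2a (1489), Stmn2 (640), Tubb3 (600.5), Map1b (208), Mapt (205), Tubb2b (92.6) and Dcx (20.6) down to Map2 (15.5). Tuba1a exceeded Tubb2a in all 49 cells. Some neighbours in this order could not be ranked cell by cell. Stmn2 exceeded Tubb3 in 23 of 49 cells, Map1b exceeded Mapt in 24 and Dcx exceeded Map2 in 28. The kit reads 3′ ends, so that division by length lowers long transcripts such as those of Map1b and Map2. By RPM without it the order was Tuba1a, Stmn2, Map1b, Tubb2a, Mapt, Tubb3, Dcx, Map2 and Tubb2b, and only Tuba1a kept its place.

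The tubulins varied together from cell to cell. Across the 49 cells, which share library pools and differ in depth, Spearman's rho was 0.81 for Tuba1a and Tubb3, 0.75 for Tubb3 and Tubb2a, and 0.71 for Tuba1a and Tubb2a. For Tuba1a and Tubb3 it was 0.82 on ranks within pools and between 0.68 and 0.92 in the single pools. Tuba1a and Tubb2b had a rho of 0.66. The lowest of the 6 tubulin pairs was Tubb2a and Tubb2b, at 0.44. Of all 36 pairs of the 9 genes, 10 had a rho of 0.5 or more. Among the 266815 pairs of the 731 genes with a read in every cell 1.99% did, and their median rho was 0.09. On ranks within pools 6 of the 36 pairs reached it, and without the cells of pool 5 it was also 6.

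**Figure D3:**
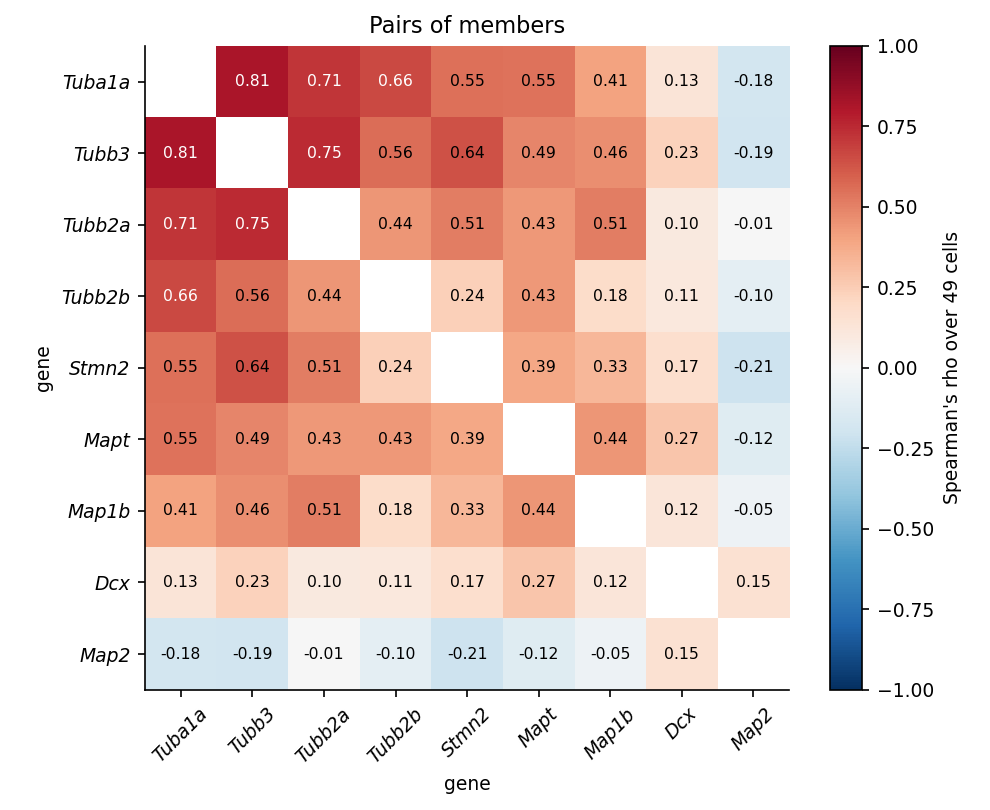
Spearman's rho over 49 cells for each pair of the 9 genes, printed in each square and coloured from -1 (blue) to 1 (red). The 4 tubulins form the reddest block, with rho between 0.44 and 0.81, and the Map2 row lies between -0.21 and 0.15.

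Stmn2 went with the tubulins to a lesser degree, with a rho of 0.64 to Tubb3, 0.55 to Tuba1a, 0.51 to Tubb2a and 0.24 to Tubb2b. The value with Tubb3 was 0.72 within pools and positive in all 5 of them. Mapt had a rho of 0.55 with Tuba1a (0.43 within pools), and Map1b had 0.51 with Tubb2a (0.49 within pools). Without pool 5 these values were 0.38 and 0.33. Map1b and Tuba1a, at 0.41 over all cells and 0.18 without pool 5, lay between -0.35 and 0.73 in single pools. Dcx, in contrast, had a rho of only 0.10 to 0.27 with the other 8 genes.

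Map2 did not follow the rest. Its rho with the other 8 genes lay between -0.21 (Stmn2) and 0.15 (Dcx), with a median of -0.11. With Tuba1a it was -0.18 over all cells and -0.21 within pools, and it was negative in each of the 5 pools. Without pool 2 it was -0.06 and without pool 5 it was -0.30, so its size is not settled by these cells. The balance of these genes differed widely between neurons: per kb, Tuba1a stood at 41.5 to 11776 times the level of Map2, with a median of 379, and Stmn2 at 2.77 to 1713 times, with a median of 36.9. Division by length raises these ratios, since Map2 has the longest exon sequence of the 9. In RPM without it the ratio of Tuba1a to Map2 was 4.55 to 1291 with a median of 41.6, and that of Stmn2 to Map2 was 0.945 to 584 with a median of 12.6, above 1 in 48 of 49 cells. For comparison, the ratio of Tuba1a to Tubb3 per kb had a median of 9.44 and was at least 2.94.

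**Figure D4:**
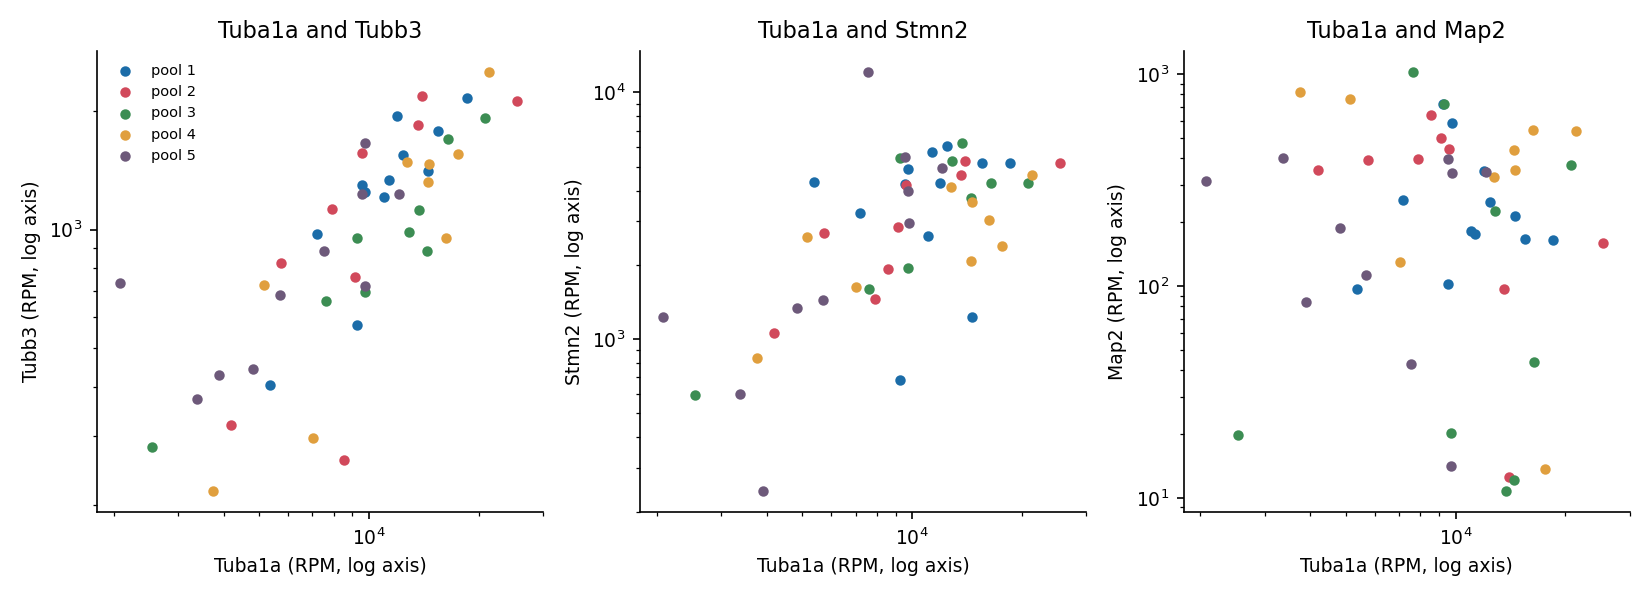
Tubb3, Stmn2 and Map2 (RPM, log axes) against Tuba1a (RPM, log axis), 1 point per cell, coloured by library pool. Tubb3 climbs with Tuba1a (rho 0.81), Stmn2 does so more loosely (rho 0.55), and Map2 spreads over 10.7 to 1024 RPM at like Tuba1a levels (rho -0.18).

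Upstream sequences are shown for Tubb2a and Tubb3, as a pair that varied together, and for Map2, which did not. Promoters of 6 of the 9 genes (not Stmn2, Tubb2b and Mapt) were matched in RefSeq on GRCm38.p6. The letters below run 5′ to 3′ on the gene's strand and end before the first annotated exon, and capitals mark a GC box (GGGCGG or its complement CCGCCC) or a TATA box (TATAAA).
Tubb2a, chr13:34078009-34078258, minus strand: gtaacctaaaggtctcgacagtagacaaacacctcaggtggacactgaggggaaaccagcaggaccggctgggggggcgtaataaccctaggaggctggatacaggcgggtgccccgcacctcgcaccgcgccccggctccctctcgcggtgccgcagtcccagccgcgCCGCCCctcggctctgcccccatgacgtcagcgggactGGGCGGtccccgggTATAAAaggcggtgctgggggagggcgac
Tubb3, chr8:123411303-123411423, plus strand: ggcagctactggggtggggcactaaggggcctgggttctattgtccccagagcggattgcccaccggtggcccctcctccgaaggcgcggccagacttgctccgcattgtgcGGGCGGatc
Map2, chr1:66175079-66175272, plus strand: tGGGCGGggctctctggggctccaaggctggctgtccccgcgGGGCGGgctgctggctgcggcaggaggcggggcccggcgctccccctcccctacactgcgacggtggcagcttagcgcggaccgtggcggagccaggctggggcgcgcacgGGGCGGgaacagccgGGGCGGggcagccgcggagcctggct
Over the full 250 bases before the start and both strands, a GC box was found in 5 of the 6 genes and in 32.7% of 32817 promoters. It occurred 2 times for Tubb2a, 2 times for Tubb3 and 5 times for Map2, and it was not found for Dcx. The TATA box was found for Tubb2a, Map1b and Dcx (12.4% of promoters), CCAAT for Tuba1a, Tubb3 and Dcx (33.8%), and the E-box letters CAGATG for Map1b alone (14.5%). In the sequences printed no motif overlapped another. A match of letters is not evidence of binding.

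For 8 of the 9 genes the lowest pool median was that of pool 5, and for Map2 that of pool 3. Of the 731 genes with a read in every cell 44.5% also had it in pool 5, so this was common beyond the 9. Between pools lay 25.6% of the variance of Map1b, 20.3% of that of Tubb2a and 17.1% of that of Tuba1a on the log2 scale. Which cells went into a pool and how they were sequenced cannot be told apart.

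Several properties of the cells moved with these genes. All 9 correlated positively with the reads per cell, from 0.05 for Map2 to 0.52 for Tubb2a, and within pools the Tubb2a value was 0.35. Over the 731 genes the median was 0.19, and 82.1% were positive. The share of mitochondrial reads had a rho of -0.46 with Stmn2, -0.44 with Tuba1a and -0.42 with Tubb3, but 0.27 with Map2, where the 731 genes had a median of -0.15. With the hemoglobin share all 9 were negative, the lowest being Mapt at -0.54. Of the 731 genes 78.7% were negative with it, with a median of -0.15.

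Marker lists of other cell types were set beside the 9 genes in the same way. The summed level of 4 microglia markers (C1qa, C1qb, C1qc and Csf1r), which ranged from 0 in 5 cells to 3210 RPM, was negatively related to all 9 genes, down to -0.51 for Tubb2a, -0.47 for Tuba1a and -0.46 for Tubb3. The median over the 731 genes was -0.04, and 58.4% of them were negative. The sum of 5 excitatory markers had a rho of 0.45 with Tuba1a and of -0.25 with Map2, and the sum of 7 inhibitory markers had -0.16 with Tuba1a and 0.40 with Map2. On ranks within pools those 4 values were 0.46, -0.21, -0.35 and 0.37, so Map2 and Tuba1a stood on opposite sides of both lists. Over the 731 genes the excitatory median was 0.12 (73.1% positive) and the inhibitory median -0.06 (63.1% negative). Tuba1a thus had the sign of most genes. The pan-neuronal sum had 0.04 with Tuba1a and -0.09 with Map2, and the oligodendrocyte lineage sum had -0.08 and 0.23. The part of these measures in the relations between the 9 genes was not tested.

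Other genes of the microtubule and growth machinery were taken from 10 lists of 87 genes, of which 75 are in the table and 67 are not among the 9. A read in every cell was found for 20 of these 67. With Tuba1a, 10 of the 67 had a rho of 0.5 or more, while 1.52% of 7411 genes of the table expressed at 10 RPM or more in at least 10 cells did. With Map2 none of the 67 did, and 0.0405% of the 7411 genes. The sets were not matched for detection, which limits the comparison. A read in every cell was found for 20 of the 67 and for 731 of all 9020 genes.

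The 10 genes belong to several steps. Tubb5 (rho 0.70) and Tuba1b (0.59) are tubulins, and Tuba1b shares sequence with Tuba1a. Tbca (0.51) and Tbcb (0.52) encode cofactors of tubulin folding, and Ttl (0.50) encodes the ligase that restores the terminal tyrosine of alpha-tubulin. Gap43 (0.75), a growth cone protein with a median of 3064 RPM, Marcksl1 (0.65) and Crmp1 (0.64), a collapsin response mediator, came from the growth cone list. Stmn3 (0.56), with a median of 2354 RPM, is a stathmin, and Map1lc3a (0.50) came from the list of structural microtubule-associated proteins. The 2 highest genes of the plus-end list, Mapre2 and Mapre1, had a rho of 0.23 and 0.35, and those of the neurofilament list, Nefl and Ina, had 0.03 and 0.15. Among the kinases of microtubule-associated proteins, Cdk5 had 0.18 and Gsk3b had 0.20. Dclk1, which encodes a kinase with doublecortin domains, had -0.12.

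**Figure D5:**
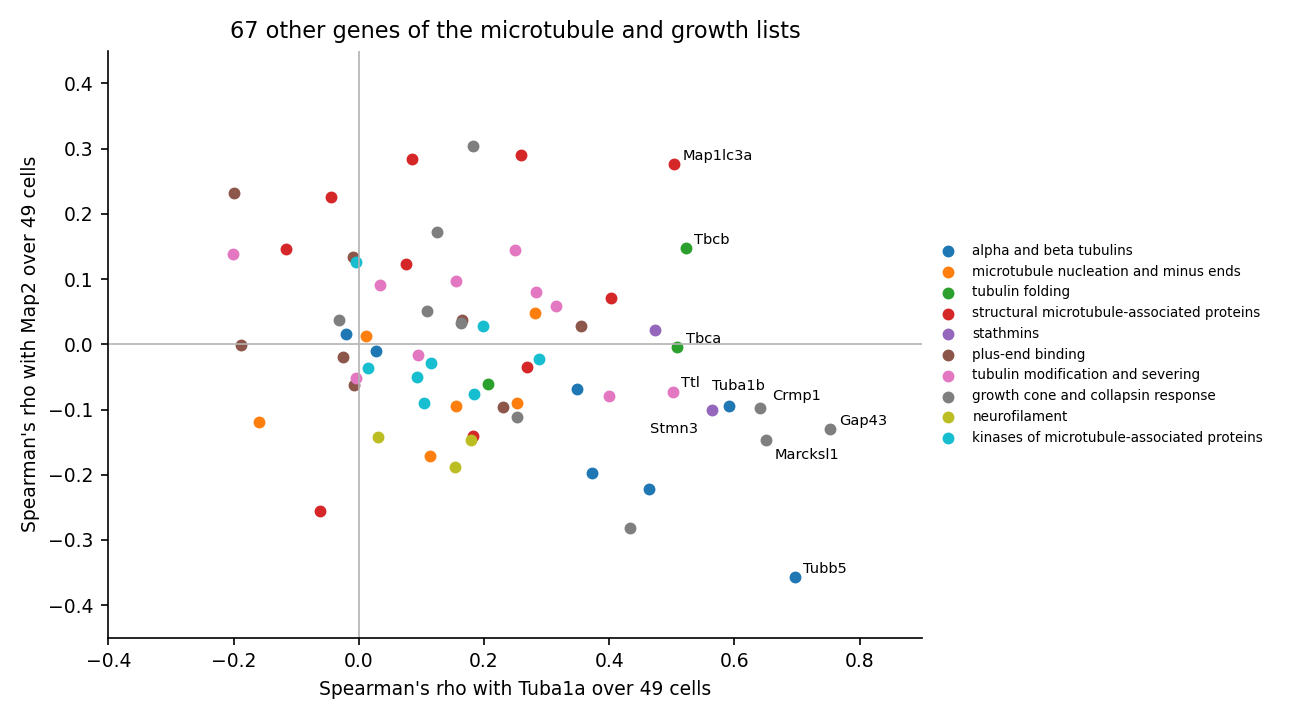
Spearman's rho with Tuba1a (horizontal axis) and with Map2 (vertical axis) over 49 cells for 67 genes of 10 microtubule and growth lists, 1 point per gene, coloured by list. The 10 named genes lie at 0.5 or more on the Tuba1a axis, and no gene does on the Map2 axis.

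The genes outside the 9 whose levels were most like each of them were taken from those expressed at 10 RPM or more in at least 10 cells. For Tuba1a they were Eid1 (rho 0.78 over 49 cells), Gap43 (0.75), Ywhaz (0.72), Tubb5 (0.70) and Ldha (0.69). For Tubb3 they were Tubb5 (0.73), Crmp1 (0.69), Stmn3 (0.66), Dynll1 (0.66) and Gap43 (0.64). For Stmn2 they were Stmn3 (0.69), Gng3 (0.65), Cby1 (0.65), Apbb1 (0.65) and Dynll1 (0.64). Several of these recur. Stmn3 was also among the 5 for Tubb2a (0.71), where Asnsd1 led (0.72) with a median of only 0.119 RPM. Crmp1 was among those for Mapt (0.68), where Nrep led (0.69). The genes outside the 9 most like Tubb2b, Dcx and Map1b were led by Tceb2 (0.62), C530008M17Rik (0.62) and Zdhhc9 (0.61). The 5 for Map2 reached only 0.50 to 0.52 (Xpa, 2010300C02Rik, Mrpl19, Hltf and Fry), and each of them had no read in at least 1 cell. This was not particular to Map2. It also held for C530008M17Rik and for each of the 5 for Map1b, of which Zdhhc9 had a median of 1.61 RPM.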

How the data were processed

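The authors made cDNA from the contents of each patched cell with the SMART-Seq v4 3′ DE kit, prepared libraries with Nextera XT, sequenced single reads of 100 bases, aligned them to GRCm38 (mm10) with STAR, counted them with HTSeq and deposited RPM. Versions and annotation are not given in the sources used here. Every listed gene reaches 100 RPM in at least 2 cells. The kit has no molecular identifiers, so intervals cover counting error only.

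Each cell's values were divided by the RPM of 1 read. Whole reads resulted, to within 0.01, for 100% of the nonzero values, and the step was tested on simulated data. Levels were described as lowest, median and highest RPM, spread as the SD of log2(RPM + 1), and pairs by Spearman's rho, with no test. Coordinates and lengths are from GENCODE M21. Named genes were the 9, the 2 highest of each list, listed genes with a rho of 0.5 or more to Tuba1a (added after their values were seen) and the 5 outside the 9 most like each of them. The members and lists were chosen with earlier results of these data known. Alternatives were other detection limits and pseudocounts, scaling without hemoglobin and mitochondrial genes, thinning, Pearson's r, ranks within pools, leaving out 2 extreme cells and leaving out each pool. Python 3.11.15, numpy 2.4.6, pandas 2.3.3 and scipy 1.17.1 were used.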

Additional observations from a re-analysis of the deposited data

How the results depend on the processing

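With other pseudocounts, another scaling, thinning and each pool left out, the median level of each of the 9 genes moved by less than 1 SD. That limit is wide, since the SD of Map2 was 1.79 log2 units. The Map2 median lay between 7.79 (without pool 4) and 8.42 (without pool 1) on the log2 scale. The SDs moved too. That of Map2 fell to 1.49 without pool 3 and rose without pool 1. Without pool 5 the SD of Stmn2 fell from 1.11 to 0.91, while those of Tubb3, Map2 and Mapt rose. All 9 genes kept a read in every kept cell after thinning to 358412 reads, which left out 5 cells. With a limit of 10 reads 6 of the 9 were found in all cells, with 10 RPM 7 and with 100 RPM 6. Without the 8 cells of at least 1% hemoglobin reads, an alternative chosen after seeing the data, the SD of Tubb2b was 1.14 in place of 1.43. The count of pairs with a rho of 0.5 or more, 10 of 36, depended on the setting: it was 6 on ranks within pools, 12 with Pearson's r, 7 after scaling without hemoglobin and mitochondrial genes, 7 without the 2 cells farthest from the median and 7 without the hemoglobin-rich cells. It ranged from 6 (without pool 5) to 15 (without pool 1) over leaving out 1 pool. Thinning gave 15, and 12 at 324131 reads with 45 cells kept, the depth used first, which was changed to the interpolated 10th percentile after results at it had been seen. The order of levels shared 1 of 9 places when RPM were not divided by length. Of the 45 genes listed as most like the 9, 14 were kept with Pearson's r, 23 without the hemoglobin-rich cells and 44 with no filter on low values, so these lists are unsteady. The cause of these changes was not tested. No paired analysis was possible because the design has a single condition. Cells of 209850 reads resolve no level under 4.77 RPM.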
